A study of Mus musculus with 2 samples.

Results

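The 10 genes described here are the mouse microglial identity genes Cx3cr1, P2ry12, Tmem119, Csf1r, Trem2, C1qa, C1qb, C1qc, Spi1 and Irf8. They were chosen by name in the GENCODE M21 annotation of the mm10 genome (GRCm38), and they are 10 of its 55413 nuclear genes, of which 21938 are protein-coding. Everything deposited within each gene body and 50 kb on either side was examined, a stretch called the window of the gene. Merged over the 10 genes, the windows held 43 of the 48886 DNase regions called in both libraries.

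Chromatin accessibility was measured by DNase-seq, in which the enzyme DNase I cuts exposed DNA in isolated nuclei and the cuts are sequenced. The material was the left cerebral cortex of 2 female B6CASTF1/J mice, the F1 offspring of C57BL/6J and CAST/EiJ parents, aged 36 days, with 1 library per mouse. The labels give 1 group only, with no treatment and no other genotype or tissue, so no test between conditions exists and no p-value is given for any comparison here. The shorter peak list held 69208 peaks in replicate 1 and 69128 in replicate 2, the longer one 120027 and 120701. Every peak of the shorter list covered at least 1 position with a cut-rate false discovery rate (FDR) under 0.001, and every peak of the longer list covered one under 0.05. Sequencing depth was unknown. The cortex holds microglia among neurons and other glia, and fewer microglia cannot be told apart from less accessible DNA per microglial cell.

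Microglia are the resident macrophages of the brain. The transcription factor PU.1, encoded by Spi1, binds ETS sequences in macrophage enhancers, often together with IRF8, and survival of the cells depends on signalling through the receptor encoded by Csf1r. The other genes encode surface proteins by which microglia sense neurons, nucleotides and lipids, or the subunits of complement C1q, which tags synapses and debris for removal.

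Of the 10 genes, 2 had a region called in both libraries within 1 kb of an annotated start in the shorter list (20%), namely Irf8 and C1qc, against 61.1% of protein-coding genes. Of these, the Irf8 region covered the start itself, whereas the C1qc region was centred 1.21 kb upstream of the RefSeq start. The DNA under the Irf8 region is shown first, up to the base before the start, because this start had the lowest FDR of the 10 genes in both libraries. Capitals mark matches chosen after its sequence was seen, namely a TATA box (TATAAA), which binds the general factor TBP and begins 31 bases before the start, and 2 GAS words (TTCNNNGAA), 171 and 153 bases before it. Among 32851 RefSeq promoters of GRCm38.p6, each running from 250 bases before to 50 after a start, 1.75% held TATAAA on the gene strand 25 to 35 bases before the start and 8.30% held TTCNNNGAA. The second sequence is from the C1qc promoter in RefSeq, on the minus strand, where the capitals mark the reverse complement of the PU.1 word GAGGAAGT, 195 bases before the transcript start of that entry and outside every peak of either list. That word was in 3.20% of RefSeq promoters, and among the 6 genes with an entry there (Cx3cr1, P2ry12, Trem2, C1qb, C1qc and Irf8) C1qc alone held it. The shorter 7-letter PU.1 word AGGAAGT was in 3 of the 7 promoters entered for these genes, those of C1qb, C1qc and P2ry12, against 9.35% of RefSeq promoters.
Irf8 start, plus strand, chr8:120736161-120736357: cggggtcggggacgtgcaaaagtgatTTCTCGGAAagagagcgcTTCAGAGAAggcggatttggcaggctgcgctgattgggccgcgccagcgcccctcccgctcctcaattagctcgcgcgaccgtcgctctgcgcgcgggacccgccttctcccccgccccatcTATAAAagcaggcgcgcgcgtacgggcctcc
C1qc promoter stretch, chr4:136893091-136893120: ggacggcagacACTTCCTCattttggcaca

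The next sequences are regions that hold the CTCF consensus, a 14-letter pattern bound by the insulator and loop-anchor protein CTCF, with at most 1 mismatch on either strand within 100 bp of the centre. They are shown because this pattern recurred at the tallest regions away from gene starts around several of these genes, and capitals mark the match. In the C1qa sequence the first run of capitals marks a match to the ETS-IRF composite word (GGAANNGAA), the joint site of PU.1 and IRF8. All are on the plus strand of mm10, and the tallest region away from starts is the one with the highest mean height percentile among those of the window that lie at no gene's start. The Tmem119 region nearest the gene and the Irf8 region downstream were added after their values were seen.
C1qc, region upstream of the start, chr4:136894041-136894240: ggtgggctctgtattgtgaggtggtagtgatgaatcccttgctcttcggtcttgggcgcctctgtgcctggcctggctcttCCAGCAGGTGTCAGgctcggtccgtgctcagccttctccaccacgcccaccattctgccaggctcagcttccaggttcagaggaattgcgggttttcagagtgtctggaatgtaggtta
C1qa, region downstream of the C1q genes, chr4:136877081-136877260: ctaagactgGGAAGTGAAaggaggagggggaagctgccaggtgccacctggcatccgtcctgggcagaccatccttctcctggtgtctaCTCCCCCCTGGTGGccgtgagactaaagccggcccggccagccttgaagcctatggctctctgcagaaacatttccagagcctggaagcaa
C1qb, tallest region away from starts, chr4:136841201-136841360: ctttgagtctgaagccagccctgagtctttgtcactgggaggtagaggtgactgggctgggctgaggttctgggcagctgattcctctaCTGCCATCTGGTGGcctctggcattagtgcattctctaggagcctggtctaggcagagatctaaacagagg
Tmem119, tallest region away from starts, chr5:113844821-113845040: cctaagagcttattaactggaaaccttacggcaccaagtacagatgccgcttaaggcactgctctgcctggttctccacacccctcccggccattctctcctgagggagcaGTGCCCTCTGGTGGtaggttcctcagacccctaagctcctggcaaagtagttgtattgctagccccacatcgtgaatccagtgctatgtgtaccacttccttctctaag
Tmem119, nearest region, chr5:113815861-113816040: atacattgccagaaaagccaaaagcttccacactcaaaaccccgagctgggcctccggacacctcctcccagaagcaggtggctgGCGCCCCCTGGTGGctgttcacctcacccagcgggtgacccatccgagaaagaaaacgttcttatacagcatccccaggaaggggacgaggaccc
Spi1, last exon, chr2:91115141-91115360: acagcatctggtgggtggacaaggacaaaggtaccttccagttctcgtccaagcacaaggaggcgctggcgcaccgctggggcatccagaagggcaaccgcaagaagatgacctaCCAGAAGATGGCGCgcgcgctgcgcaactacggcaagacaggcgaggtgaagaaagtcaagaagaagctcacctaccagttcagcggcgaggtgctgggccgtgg
Irf8, downstream, chr8:120796361-120796560: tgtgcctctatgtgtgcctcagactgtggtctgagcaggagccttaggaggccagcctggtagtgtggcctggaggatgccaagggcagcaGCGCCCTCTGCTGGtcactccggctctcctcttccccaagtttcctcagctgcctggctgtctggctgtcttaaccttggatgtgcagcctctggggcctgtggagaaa

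The last set shows regions of P2ry12, Trem2 and Cx3cr1 that held no such match, with 3 mismatches at the best position of each. That position was 2 bp from the region centre for P2ry12 and 3 bp for Trem2. For Cx3cr1 it was 73 bp in the upstream region and 63 bp in the tallest one. Whether CTCF binds such weaker matches was not tested. These regions carry no capitals, since none of the factor words listed further on was within 100 bp of their centres. The Cx3cr1 region upstream of the gene was added after its values were seen.
P2ry12, intron, chr3:59243501-59243700: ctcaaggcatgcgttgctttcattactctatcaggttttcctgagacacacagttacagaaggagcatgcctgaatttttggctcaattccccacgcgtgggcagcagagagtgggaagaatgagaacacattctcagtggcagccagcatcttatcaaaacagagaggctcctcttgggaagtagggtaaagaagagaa
Trem2, upstream, chr17:48336981-48337160: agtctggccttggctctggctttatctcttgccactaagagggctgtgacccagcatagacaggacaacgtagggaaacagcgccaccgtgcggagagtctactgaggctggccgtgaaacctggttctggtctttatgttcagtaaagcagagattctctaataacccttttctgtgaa
Cx3cr1, upstream, chr9:120073241-120073440: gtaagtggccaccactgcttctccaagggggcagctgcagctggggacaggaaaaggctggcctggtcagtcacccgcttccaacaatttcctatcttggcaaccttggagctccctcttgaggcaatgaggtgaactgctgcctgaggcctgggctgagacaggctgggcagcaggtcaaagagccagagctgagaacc
Cx3cr1, tallest region of the window, chr9:120011121-120011400: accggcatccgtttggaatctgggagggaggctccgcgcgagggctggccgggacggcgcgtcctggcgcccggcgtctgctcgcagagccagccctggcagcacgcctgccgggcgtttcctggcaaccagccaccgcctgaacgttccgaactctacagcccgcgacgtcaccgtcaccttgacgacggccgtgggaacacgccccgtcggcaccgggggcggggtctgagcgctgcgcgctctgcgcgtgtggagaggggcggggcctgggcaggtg

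The transcription factor genes differed at their starts. Irf8 (chr8:120736358-120756694, plus strand), which encodes a partner of PU.1, had a region of 260 bp over its start with peak heights of 3.23 in replicate 1 and 1.81 in replicate 2. Height is the signal value the authors gave each peak, on a scale that is not stated, so percentiles within each library's shorter list are set beside it, and these were 82.2 and 79.5. Within 1 kb of the Irf8 starts, 1017 bp in replicate 1 and 1006 bp in replicate 2 lay in runs under an FDR of 0.05, and the lowest values were 1.03e-25 and 2.1e-17. The region carried 7 footprints in replicate 1 and 5 in replicate 2, that is, short protected stretches within the cut pattern.

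Spi1 (chr2:91082390-91115756, plus strand), the gene of PU.1, had no call at its start. No position within 1 kb of any of its 4 annotated starts was under an FDR of 0.05 in either library. Its accessible regions lay inside the gene, in an intron 19.2 kb downstream of the start with heights of 5.18 and 2.52, and in the coding part of its last exon at 32.9 kb with heights of 6.91 and 3.29. Their percentiles were 91.8 and 86.9 in the intron and 96.4 and 91.3 in the exon, and both regions matched the CTCF consensus with 1 mismatch. A further region called in both libraries, 11.9 kb upstream with heights of 8.24 and 4.37, lay at the start of Slc39a13. The longer list added 2 intronic regions called in both libraries, at 8.04 kb with heights of 0.736 and 0.645 and at 8.65 kb with heights of 1.02 and 0.606.

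Both factor genes have an enhancer that is well known from work on mouse blood cells, and neither was called. The upstream regulatory element of Spi1 lies about 14 kb upstream of the start, and between -15 and -13 kb there were 0 peaks in any list and 0 bp under an FDR of 0.05 in both libraries. The enhancer of Irf8 near 56 kb downstream lies between 55 and 57 kb, where there were again 0 peaks in any list and 11 bp in replicate 1 against 0 bp in replicate 2. The 1 other region of the Irf8 window called in both libraries was at 60.1 kb, with heights of 3.4 and 1.37, and it held the CTCF consensus with 0 mismatches.

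Among the receptor genes, none had a start in the shorter list of both libraries, and 2 had one in the longer list. Trem2 (chr17:48346401-48354147, plus strand), whose product binds lipids and signals through the adaptor encoded by Tyrobp, had a start peak in replicate 1 of the shorter list only, with a height of 0.602 and a percentile of 18. Around its starts 897 bp in replicate 1 were under an FDR of 0.05, against 183 bp in replicate 2, and the lowest values were 0.000269 and 0.00793. The longer list called 1 region there in both libraries, 0.689 kb inside the gene, with heights of 0.59 and 0.578. Cx3cr1 (chr9:119901616-120069879, minus strand), the receptor for the neuronal chemokine fractalkine, had an 80 bp region in the longer list, 0.015 kb from its RefSeq start. This region had heights of 0.401 and 0.331 and also lay within 1 kb of a start of Gm33858. Around the Cx3cr1 starts 45 bp in replicate 1 and 71 bp in replicate 2 were under an FDR of 0.05, with lowest values of 0.0293 and 0.0269.

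P2ry12 (chr3:59216272-59262871, minus strand), a receptor for ADP that guides microglial processes, had no position under an FDR of 0.05 within 1 kb of its 5 annotated starts in either library. In the shorter list its 1 region within 20 kb of the start lay in an intron 19.4 kb downstream, with heights of 2.64 and 1.42 and percentiles of 77.6 and 71.6. P2ry12 lies within the gene Med12l, and that region is intronic to both genes. The longer list added 1 region called in both libraries 4.82 kb inside P2ry12, at a start of Med12l, with heights of 0.444 and 0.611.

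Tmem119, a membrane protein used as a microglial marker, and the C1q genes had weak starts or none. Tmem119 (chr5:113793729-113800516, minus strand) had a 167 bp region in the longer list, 0.005 kb from its start, with heights of 0.626 and 0.533. It had 128 bp in replicate 1 and 70 bp in replicate 2 under an FDR of 0.05, with lowest values of 0.00854 and 0.0349. C1qa (chr4:136895917-136898803) and C1qb (chr4:136880129-136886187), on the minus strand, had no position under that limit at their starts in either library. C1qc (chr4:136889804-136893065), between them on the same strand, had heights of 1.58 and 0.999 in its upstream region, with percentiles of 62.5 and 55.1. At the C1qc start itself a peak was called in the longer list of replicate 2, with a height of 0.438, and none in replicate 1. The 3 genes share 1 cluster, so the upstream region of C1qc also lay within the windows of C1qa and C1qb.

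Counting any position under an FDR of 0.05 within 1 kb of a start in both libraries gave the same 5 genes as the longer list, Cx3cr1, Tmem119, Trem2, C1qc and Irf8, against 66.3% of protein-coding genes. The longer list's 5 of 10 (50%) stood against 65.5%. Peaks of replicate 1 alone gave 3 genes, against 63.4%, and peaks of replicate 2 alone gave 2, against 62.3%. The starts of these genes were mostly poor in CpG dinucleotides. The ratio of observed to expected CpG within 500 bp of the start, taking the highest start, was under 0.4 for 8 of the 10 genes, all but P2ry12 at 0.443 and Irf8 at 0.735. Among all protein-coding genes under that ratio, 749 of 7471 (10.0%) had a promoter region called in both libraries, and among the 8 genes here 1 had one, C1qc.

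**Figure D1:**
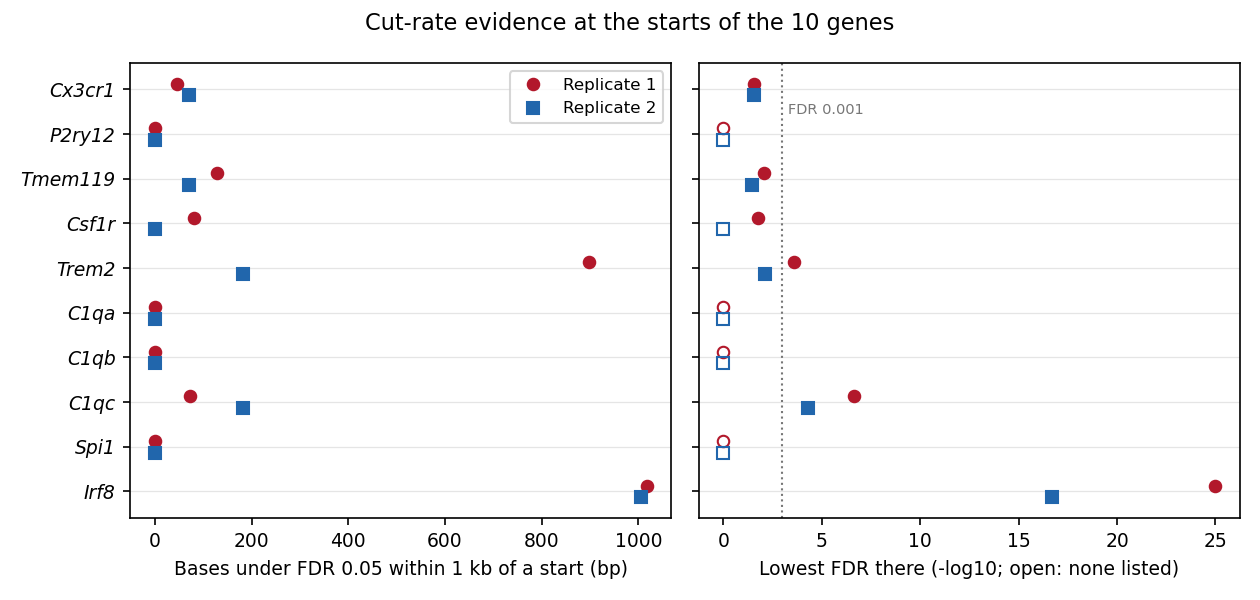
For each of the 10 genes, the left panel shows the bases in runs under an FDR of 0.05 within 1 kb of its annotated starts, and the right panel shows the lowest FDR there as -log10, circles for replicate 1 and squares for replicate 2, with open symbols where no position was listed. By lowest FDR Irf8 stands apart in both libraries, whereas by bases Trem2 comes near it in replicate 1 (897 bp against 1017 bp). P2ry12, C1qa, C1qb and Spi1 have no such bases in either library.

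Csf1r (chr18:61100598-61132149, plus strand), the receptor for CSF1 and IL-34, had 80 bp under an FDR of 0.05 near its starts in replicate 1 and 0 bp in replicate 2. A 72 bp peak with a height of 0.59 was called there in the longer list of replicate 1 only. Inside the gene, intron 2 held a region 3.05 kb from the start, and in mouse this intron is known to hold the enhancer called FIRE, on which Csf1r expression in microglia depends. The longer list called it in both libraries, with heights of 0.675 and 0.914, while the shorter list called it in replicate 2 only, with a height of 0.914 and a percentile of 50.3. The tallest region of the window not at a start was 37 kb upstream, in an intron of the neighbouring receptor gene Pdgfrb, with heights of 9.06 and 2.81 and the CTCF consensus with 0 mismatches.

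Away from starts, the closest regions to Trem2 and Cx3cr1 were upstream of each gene. The Trem2 region 9.33 kb upstream had heights of 4.68 in replicate 1 and 1.44 in replicate 2, with percentiles of 90 and 72. A region 16.7 kb downstream of the Trem2 start, in an intron of Treml1, had heights of 1.59 and 0.617, and one 19.6 kb upstream, in an exon of B430306N03Rik, had heights of 1.23 and 1.42 and held the ETS-IRF composite word. The Cx3cr1 region 5.04 kb upstream of the RefSeq start had heights of 4.02 and 1.19, with percentiles of 86.9 and 64.2. The tallest region of the Cx3cr1 window, with heights of 10.4 and 5.54, was 57 kb downstream in an exon of the long noncoding RNA gene Gm49427. A single annotated transcript stretches the Cx3cr1 body to 168264 bp over other genes, whereas RefSeq gives chr9:120048683-120068296. Within the RefSeq span the shorter list had no region called in both libraries, and the longer list had 1 beside that at the start, in an intron at 13.2 kb with heights of 0.499 and 0.516. The other regions of the long body away from starts were at 47.8 kb with heights of 2.7 and 1.45, at 56.5 kb with 1.47 and 1.19, and at 66.1 kb with 1.88 and 1.32. Further off they were at 86.8 kb with 1.14 and 1.07, at 89.2 kb with 0.912 and 1.28, and at 97.2 kb with 1.46 and 1.05. Of these 6 regions, the one at 47.8 kb held the CTCF consensus, with 0 mismatches.

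Tmem119 and the C1q genes also had regions away from starts, whose sequences are printed above. The Tmem119 region 15.6 kb upstream had heights of 2.16 and 0.808, and the one 44.5 kb upstream, in an intron of Coro1c, had 2.13 and 1.49. The region 9.03 kb downstream of the C1qb start had heights of 1.64 and 0.673, and the one 44.9 kb downstream had 3.37 and 1.56. No gene is annotated over either C1q region.

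**Figure D2:**
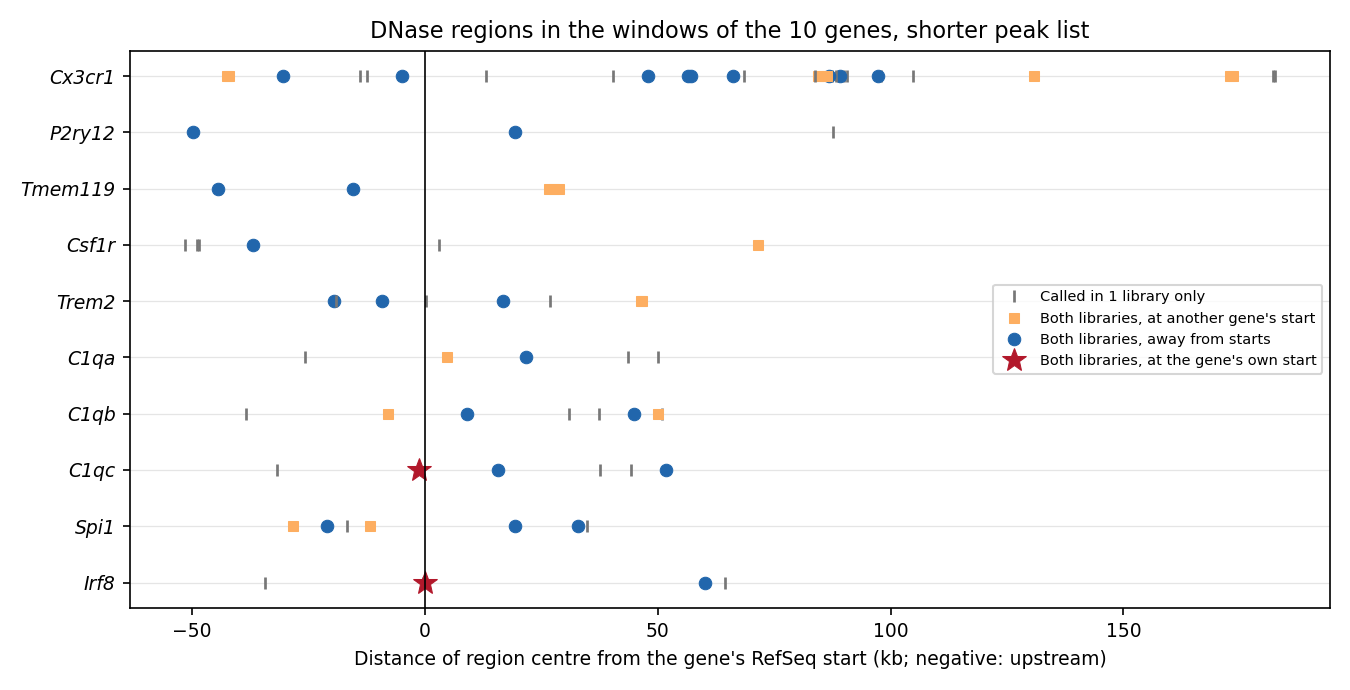
Each row is 1 of the 10 genes and each symbol a region of the shorter peak list in its window, placed by the distance of its centre from the RefSeq start in kb, with upstream to the left. Stars mark the regions at the start of Irf8 and upstream of C1qc, circles the regions away from all starts, squares those at the start of another gene and ticks those called in 1 library only.

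Of the 43 regions, 2 were at starts of the 10 genes, 18 at starts of other genes and 23 away from all annotated starts. Regions at other starts included those of Wdr48, Gorasp1, Csrnp1 and Slc25a38 around Cx3cr1, Sart3 and Iscu beside Tmem119, Hmgxb3 beside Csf1r, Nfya beside Trem2, Ephb2 beside the C1q genes, and Psmc3 and Slc39a13 beside Spi1. A further 11 regions were called in replicate 1 only and 21 in replicate 2 only. In the longer lists 78 regions were called in both libraries, 22 in replicate 1 only and 32 in replicate 2 only.

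Regions were about as dense around these genes, by the median, as around all. Over the 10 genes the median was 3.33 regions per 100 kb, against 3.31 for all protein-coding genes, whose quartiles were 1.36 and 5.76, and 5 of the 10 genes were at or below that median. Cx3cr1 had the most at 6.71 and P2ry12 the fewest at 1.36. The share of window bases under an FDR of 0.05 was 2.97% in replicate 1 and 3.26% in replicate 2, against 2.1% and 2.22% for the windows of all protein-coding genes. Footprints of both libraries were present in 41 of the 43 regions (95.3%), against 93.2% of all regions called in both.

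Factor words were counted in the 25 regions at the 10 genes' own starts or away from starts, within 100 bp of the centre and on both strands, beside the 27407 regions away from starts in the whole series. The PU.1 word GAGGAAGT was in 0 of 25 regions, against 1.52% of all, and a count of 0 in 25 allows a share of up to 12%. That limit is 3 in 25 and is rough, since it takes the regions as independent although several share a window. The ETS-IRF composite word GGAANNGAA was in 2 regions (8%), against 5.68%, and the interferon response word GAAANNGAA in 0, against 5.42%. The RUNX word TGTGGTT was in 0 regions against 3.94%, the C/EBP word TTGCNNAA in 1 against 8.56%, the MAF word TGCTGAC in 0 against 4.52%, and the MiT/TFE word TCACGTGA in 0 against 0.219%. The AP-1 word TGANTCA was in 3 regions (12%), against 11.3%, the CpG-bearing ETS word CCGGAAGT in 0, against 0.358%, and the short CTCF word CCANNAGGG in 4 (16%), against 10.0%. Each count was of 4 regions or fewer, and a missing word says only that these letters were not in the window searched.

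The full CTCF consensus, added after the regions were seen, matched with at most 1 mismatch in 10 of the 23 regions away from starts (43.5%), against 27.0% of all such regions. In 9 of the 10 the midpoint of the match lay within 25 bp of the region's centre. The same was not counted over all regions with the consensus, so it is not shown to be particular to these genes. Over all regions away from starts, those with it had a median height percentile of 67.7 and those without it 47.4, so the comparison was also made by height. Among regions whose mean height percentile was 60 or more, 8 of 16 around these genes held it (50%), against 43.1% of all, and under 60 it was in 2 of 7 (28.6%), against 17.5%. With the region upstream of C1qc set aside, all 3 regions of Spi1 away from starts, both of Tmem119, both intergenic regions of the C1q genes, the 1 of Csf1r and the 1 of Irf8 away from its start held the consensus, while 1 of the 9 of Cx3cr1, none of the 3 of Trem2 and neither of P2ry12 did.

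The libraries differed in height at these regions. For each region with 1 peak per library, the log2 ratio of heights, replicate 1 over replicate 2, was centred on its median over all 45612 such regions, which was 0.43, and the centred values had an SD of 0.48. Around the 10 genes the centred median was 0.27 over 42 regions, with 30 above 0. It was 0.48 over the 23 regions away from starts, with 19 above 0, against -0.01 with an SD of 0.55 for all regions away from starts. At starts of other genes in the windows it was 0.07 over 17 regions. With 10 kb flanks, the median away from starts was 0.48 for these genes and 0.54 for the myeloid factor list described below. Of the other lists there, border macrophages had 0.33 (2 regions), further microglial genes 0.21, astrocytes 0.21 and pathway partners 0.14. Oligodendrocyte, neuron, lymphocyte and endothelial lists had -0.07, -0.08, -0.17 and -0.21.

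This ratio moved with height and with the CTCF consensus in the whole series, and the part of each in the values here was not tested. In 5 bins of the mean height percentile, each 20 wide, low to high, the centred medians of all regions away from starts were -0.22, -0.19, -0.10, 0.19 and 0.58, and the median percentile of the 23 regions was 72.6. Regions with the consensus had a centred median of 0.66 around these genes (SD 0.33, n = 10 regions), against 0.53 over all such regions (SD 0.49). Regions without it had a centred median of 0.17 around these genes (SD 0.68, n = 13 regions), against -0.15 over all such regions (SD 0.47). The largest of the 13 were the upstream regions of Cx3cr1 at 1.32 and of Trem2 at 1.28, with the downstream region of Trem2 at 0.94. These 3 were above the 95% quantile of regions without the consensus in their own bin of height, which was 0.93 for Cx3cr1, 1.09 for the upstream Trem2 region and 0.69 for the downstream one. They were singled out after their values were seen, and with 1 library per mouse a difference between animals cannot be told apart from one between libraries.

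**Figure D3:**
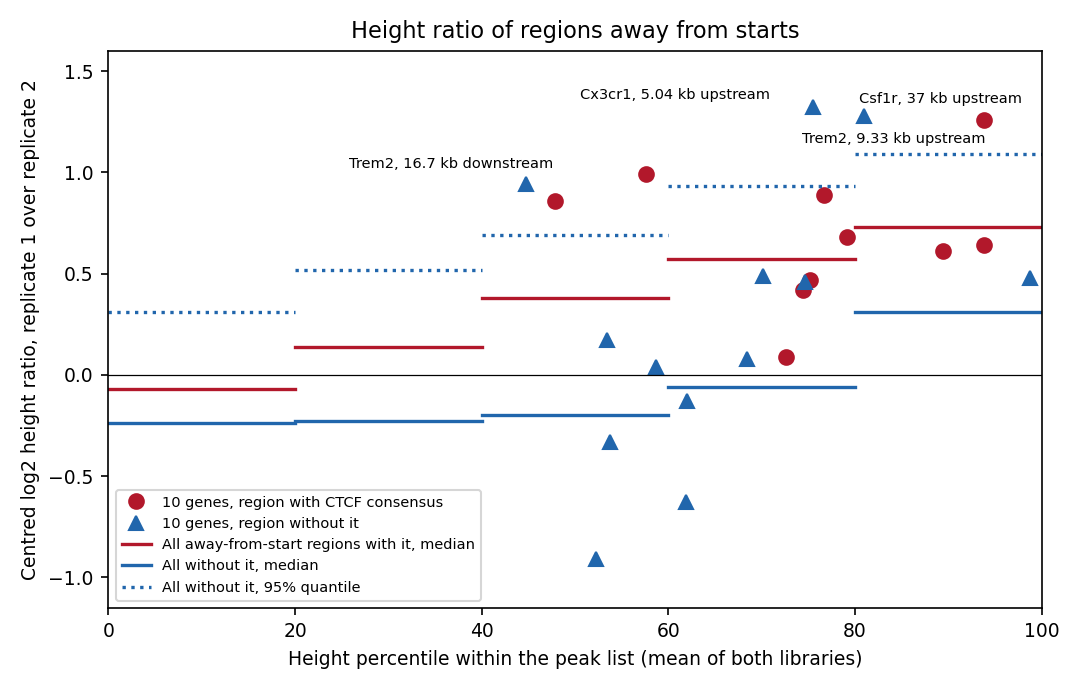
The 23 regions away from starts are plotted by mean height percentile and by centred log2 height ratio, replicate 1 over replicate 2, as circles with the CTCF consensus and triangles without it. Horizontal lines give the medians of all regions away from starts in each bin of height, with and without the consensus, and the dotted line the 95% quantile without it. The upstream regions of Cx3cr1 and Trem2, at 1.32 and 1.28, lie above the dotted line.

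Starts of genes related to the 10 were counted in the same way, and the lists were not compared by a test. Of all protein-coding genes, 61.1% had a promoter region in the shorter list and 65.5% in the longer list. Of 20 further microglial genes 7 had a promoter region in both libraries (35%), and 10 in the longer list (50%), with 14 of the 20 under the CpG ratio of 0.4. Among them were Olfml3, a secreted matrix protein, at heights of 6.47 and 2.7, and Mertk, a phagocytic receptor, at 2.23 and 1.42. The Olfml3 start is shared with the gene Gm10964. Aif1, which encodes IBA1, and Cd68, Ctss and Fcer1g were among those without one in the shorter list. Of these, Aif1 and Cd68 had one in the longer list of both libraries.

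Of 15 genes that act with the 10, as ligands, adaptors or complement components, 10 had a promoter region in both libraries (66.7%), near the 61.1% of all. They included Cx3cl1, the fractalkine that neurons present to the Cx3cr1 receptor, at heights of 4.39 and 3.07, and Csf1, a ligand of the Csf1r receptor, at 2.06 and 1.46. Tgfbr1, a receptor for TGF-beta, had heights of 4.93 and 3.28, and C2, whose region also covers starts of Ehmt2 and Zbtb12, had 2.8 and 2.38. Il34, the second ligand of Csf1r, and Tgfb1, C4b and Itgb2 had none in the shorter list, and neither had the Trem2 adaptor gene Tyrobp, which is in the microglial list as well. Of these, Tgfb1 had one in the longer list of both libraries. Of 15 transcription factor genes of the myeloid lineage 10 had one (66.7%), again near the 61.1% of all protein-coding genes. Among the 10 were Mef2a at 8.38 and 5.16, Cebpa at 5.53 and 3.34, and Cebpb at 3.71 and 2.47. Starts of Gm45091 lay at the Cebpa region, and of A530013C23Rik and Tmem189 at that of Cebpb. Batf3, Fli1 and Irf4 had none in the shorter list but one in the longer list of both libraries, and Irf5 had none in either. Only 2 of those 15 were under the CpG ratio of 0.4, and Sall1 is in both the microglial and the factor list.

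Markers of other immune cells had no promoter region. None of 11 genes of border macrophages, monocytes and granulocytes, such as Ccr2, Cd163, Ly6c2 and Lyve1, had a promoter region in either peak list of both libraries. None of 9 lymphocyte genes, such as Cd3d, Cd3e and Cd4, had one either. Of these genes 9 of 11 and 8 of 9 were under the CpG ratio of 0.4, as were most of the 10 genes here. In the lists of cortical cell types, 2 of 10 excitatory neuron genes and 4 of 10 each of astrocyte, oligodendrocyte lineage and endothelial genes were under that ratio. In the shorter list, against 61.1% of protein-coding genes, all 10 excitatory neuron genes had a promoter region. Among them were Tle4 at heights of 10.5 and 8.52, Camk2a at 4.04 and 2.75 and Rorb at 3.58 and 2.35. So had 8 of 10 astrocyte genes, with Gfap at 3.61 and 1.71 and without Aqp4 and S100b, and the longer list gave all 10 astrocyte genes one. In the oligodendrocyte lineage 5 of 10 had one, with Pdgfra, which shares its start with Gm42803, at 3.37 and 1.75 and without Mag, Mog and Olig2, among others. The longer list gave 6 of 10, Olig2 among them. In endothelium 2 of 10 had one, Erg at 1.25 and 0.735 and Kdr at 1.08 and 0.55, and Cdh5, Cldn5, Esam and Flt1 were among those without. For endothelium the longer list gave 6 of 10, Cldn5 and Flt1 among them.

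**Figure D4:**
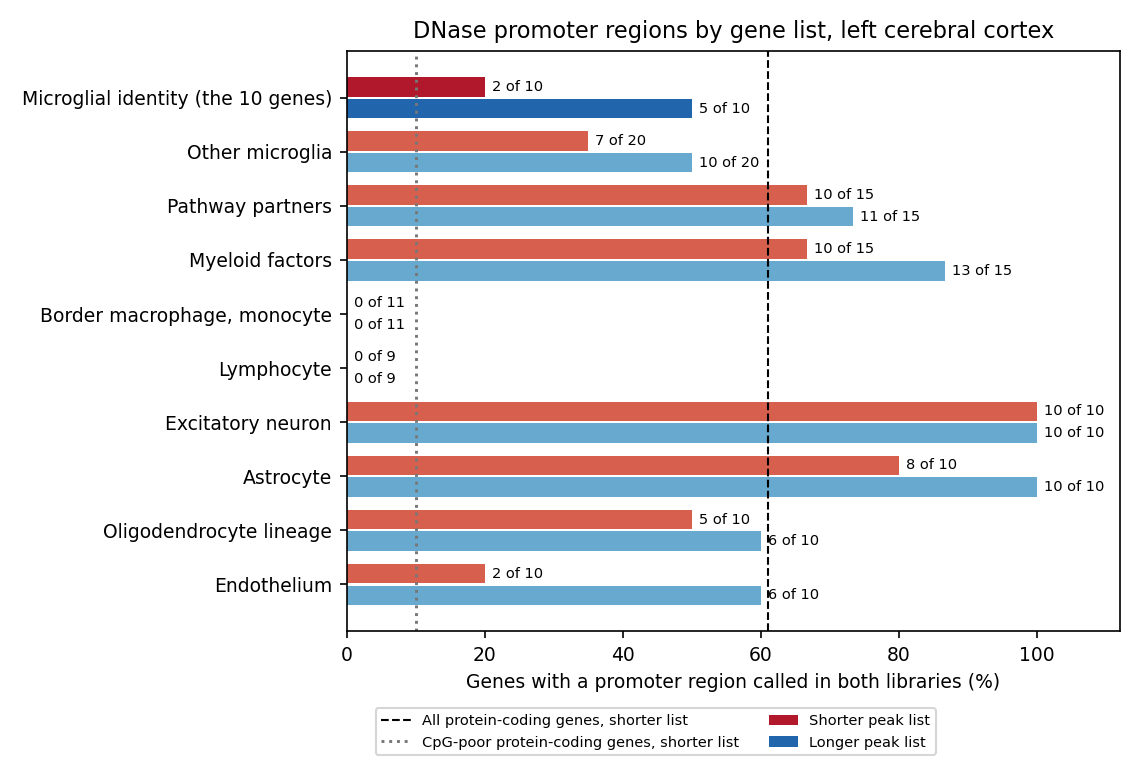
For each gene list, with the 10 microglial identity genes at the top, the bars give the percentage of genes with a region within 1 kb of a start in both libraries, in the shorter and the longer peak list, with the counts beside them. The dashed line is the share of all protein-coding genes in the shorter list (61.1%) and the dotted line that of CpG-poor ones (10.0%). The 10 genes lie between them in the shorter list, but they are not all CpG-poor. Of the 8 that are, C1qc alone has a promoter region there.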

How the data were processed

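Per the deposited read-me texts, the authors made each file per library on mm10. Aligner, callers and read depth: not given in the sources used here. Peak heights are the signal values the authors deposited, on an unstated scale, so they were compared as percentiles within a library or as centred log2 ratios. The cut-rate file deposited by the authors gives an FDR, a q-value, and lists only runs under 0.05. Every footprint row carried the same deposited score, so footprints were used by position.

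The read-me texts were read for methods only. Samples were grouped by label into 1 group of 2 libraries, replicates 1 and 2, from separate mice; no test between conditions was possible. Peaks of both libraries that overlapped by at least 1 bp were merged into regions with Python 3.11.15 and numpy 2.4.6. A region within 1 kb of any GENCODE M21 transcript start counted as a promoter region, and distances were taken from RefSeq gene starts. Sequence came from GRCm38 through samtools 1.23.1 and pysam 0.24.0, and 26 of 26 annotated start codons of the 10 genes read ATG there. Functions were tested on simulated data.

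The genes, lists and words were chosen with earlier results of these data known. All 10 genes are named. Of each other list up to 4 genes with a promoter region were named, by height percentile, and up to 4 without, in alphabetical order; Tyrobp, Sall1 and genes sharing a start were named outside this rule. A few genes that the rule would name are not reported here. Regions called in both libraries are described where they lie in the gene body or within 20 kb of the start, and others by count; regions at other genes' starts are given by gene. The distant regions of Csf1r, Irf8, Tmem119 and Cx3cr1, and those of the longer list, were described after their values were seen. The CTCF consensus, the TATA and GAS words and RefSeq gene spans were added after the data were seen. Alternatives were the longer list, peaks above the median height, an overlap of at least 50% of each peak, each library alone, a 500 bp start window, 10 kb flanks, windows without other starts, an FDR of 0.001, other word settings and the C1q genes as 1 locus.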

Additional observations from a re-analysis of the deposited data

How the results depend on the processing

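No paired analysis was possible because the study has 1 group of 2 libraries. Of 75 alternative values 55 kept the reported value within the spread of the libraries, or a count within 1.5 times, and 20 did not. That spread was the SD of the values from each library alone, which are themselves among the alternatives, and not a spread around the reported value. It was 0.0994 for density and 0 for the share with the PU.1 word, so even small shifts passed those limits. For the centred height ratio the spread was instead the SD over all regions, 0.48, a wide limit that all its alternatives met. The longer list gave 5 of the 10 genes a promoter region in place of 2, and a 500 bp start window gave 1, since the C1qc region lay outside it; each library alone gave 2 or 3. Median density was 7.11 regions per 100 kb with the longer list, 1.9 with peaks above the median height, 2.84 with an overlap of at least 50% of each peak, 4.02 with 10 kb flanks, 2.1 without starts of other genes, 3.56 with the C1q genes as 1 locus and between 4.53 and 4.67 in each library alone. The median height percentile of the 43 regions, 75.2, was 66 with the longer list and between 58.8 and 70.1 in each library alone. Over all regions called in both libraries it was 61.8. It was 86.3 for the 18 regions at starts of other genes, against 75.9 for all regions at starts, and 72.6 for the 23 away from starts, against 53 for all such regions. Regions with footprints were 88.5% with the longer list and between 86.2% and 94.4% in each library alone. Window bases under an FDR of 0.05, 3.11% on average, were 3.55% with 10 kb flanks, 2.12% without starts of other genes and 2.71% with RefSeq gene spans, chosen after seeing the data; 1.84% were under 0.001. The 7-letter PU.1 word AGGAAGT was in 4% of regions, against 5.15% of all. Of the 15 genes that act with the 10, 6 had a promoter region with peaks above the median height, in place of 10. The share of all protein-coding genes is not given for that setting or for the 500 bp start window, so the counts under them have no background here. Lists that admit more or fewer peaks, and a library counted alone, change these numbers by construction; the causes of the other shifts were not tested. The centred height ratio ran from 0.18 to 0.47 over its alternatives. Depth is unknown, so a start without a call is not shown to be closed.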
